A study of Mus musculus with 32 samples.

Results

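The 10 genes described here make and load MHC class I molecules: H2-K1, H2-D1, B2m, Tap1, Tap2, Tapbp, Psmb8, Psmb9, Psmb10 and Nlrc5. They were taken by symbol from the 25067 genes of the deposited table, 1 transcript per gene (the one with the highest mean count), and all 10 were among the 11283 genes tested. RNA was sequenced from bone marrow-derived macrophages (BMDMs) of C57Bl6/J mice, grown from bone marrow in medium conditioned by L929 cells, which supply the macrophage growth factor M-CSF. Cells came from wild-type littermates (BMDM-WT) or from mice without Nur77 (BMDM-Nur77-KO). Nur77 is a nuclear receptor encoded by Nr4a1. The knockout was made by crossing mice with loxP-flanked Nr4a1 to mice with a Cre driven by the CMV promoter, which deletes the gene in the whole body and not in macrophages alone. The sample labels call this genotype cre, while the methods describe later knockout mice without Cre, so the presence of Cre in these cells was not settled. Cells of both genotypes were left untreated (0 h) or stimulated with LPS at 100 ng/ml for 1, 5 or 18 h, which gave 8 groups of 4 replicates, 32 libraries in all. LPS, a component of the outer membrane of Gram-negative bacteria, is sensed through TLR4. The number of animals behind the replicates is not stated in the sources used here, so p-values measure the spread between these samples, which may be technical.

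MHC class I molecules display peptides from inside the cell to CD8 T cells. Proteins are cut by the proteasome, whose catalytic subunits can be replaced by the inducible Psmb8, Psmb9 and Psmb10 to form the immunoproteasome. Tap1 and Tap2 form the transporter that carries peptides into the endoplasmic reticulum, Tapbp (tapasin) holds the empty class I molecule at this transporter, and the heavy chains H2-K1 and H2-D1 leave for the surface once they are bound to B2m (beta-2-microglobulin) and a peptide. Nlrc5 is a transactivator of these genes. In macrophages the whole group is known to be induced by interferons, which LPS makes the cells release.

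In the GRCm38 genome, 7 of the 10 genes lie in the MHC region of chromosome 17. These are Tapbp (chr17:33919478-33929290), H2-K1 (chr17:33996012-34000619), Psmb9 (chr17:34182030-34187330), Tap1 (chr17:34187556-34197225), Psmb8 (chr17:34198195-34201454), Tap2 (chr17:34204479-34216321) and H2-D1 (chr17:35263094-35267497). B2m lies on chromosome 2 (chr2:122147687-122153082), and Psmb10 (chr8:105935728-105938392) and Nlrc5 (chr8:94434335-94527272) lie on chromosome 8. Counts of H2-K1 and H2-D1 are uncertain because these genes have near-identical relatives. Their reads can be assigned to a relative, or be lost with the alignments of low mapping quality, which were removed. B2m overlaps Patl2, Tapbp overlaps Gm19412 and Nlrc5 overlaps 3 annotated genes, and the sources used here do not say whether counting used the strand.

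The sequences before the transcription starts are shown for 2 reasons. The heavy chain, B2m and transporter genes all rise by 5 h of LPS below, by different amounts, and 2 pairs share promoter sequence. They come from RefSeq (GRCm38.p6), whose promoter table holds windows of 300 bases (250 before and 50 after each start) for 8 of the 10 genes. Tap2 and Nlrc5 had none. The first 3 stretches are the 250 bases before the start of H2-K1 (chr17:34000348-34000597, minus strand, inside the gene interval given above, since RefSeq lists more than 1 start), H2-D1 (chr17:35262844-35263093, plus strand) and B2m (chr2:122147437-122147686, plus strand). Capitals mark the match to an NF-kB motif and the match to an interferon response motif (ISRE-like).
H2-K1: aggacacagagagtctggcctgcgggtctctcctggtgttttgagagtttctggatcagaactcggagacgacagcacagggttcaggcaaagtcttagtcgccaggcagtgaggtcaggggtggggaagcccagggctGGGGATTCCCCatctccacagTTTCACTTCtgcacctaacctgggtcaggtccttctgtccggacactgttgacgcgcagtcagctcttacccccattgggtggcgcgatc
H2-D1: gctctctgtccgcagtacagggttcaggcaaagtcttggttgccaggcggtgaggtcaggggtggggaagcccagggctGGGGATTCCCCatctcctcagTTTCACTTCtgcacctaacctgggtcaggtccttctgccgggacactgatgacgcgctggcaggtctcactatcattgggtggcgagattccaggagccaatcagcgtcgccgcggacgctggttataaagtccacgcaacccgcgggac
B2m: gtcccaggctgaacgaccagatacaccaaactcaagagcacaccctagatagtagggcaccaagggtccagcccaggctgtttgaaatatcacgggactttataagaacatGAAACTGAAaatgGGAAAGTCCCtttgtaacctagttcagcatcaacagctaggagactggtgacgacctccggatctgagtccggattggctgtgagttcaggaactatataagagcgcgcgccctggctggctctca
The stretches of H2-K1 and H2-D1 could be aligned over 190 bases, of which 174 were identical (91.6%). Both hold the NF-kB match (positions -111 to -101 from the start in H2-K1 and -171 to -161 in H2-D1) followed by TTTCACTTC on the printed strand (-90 to -82 and -150 to -142). In B2m the order is reversed, with GAAACTGAA at -139 to -131 before the NF-kB match at -126 to -117.

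Tap1 and Psmb9 start back to back, and the 225 bases between their starts (chr17:34187331-34187555, plus strand, which reads towards Tap1) are shown because they are the promoter sequence of both genes. Capitals mark a CCAAT box.
Tap1-Psmb9: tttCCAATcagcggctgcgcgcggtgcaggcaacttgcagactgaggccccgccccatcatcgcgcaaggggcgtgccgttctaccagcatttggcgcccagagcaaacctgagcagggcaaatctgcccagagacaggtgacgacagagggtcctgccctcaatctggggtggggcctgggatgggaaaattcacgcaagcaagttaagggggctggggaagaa
Each motif was searched on both strands of the 300-base windows, and its share among all 32851 promoter windows is given beside it. The NF-kB motif was found in H2-K1, H2-D1 and B2m (4.51% of all windows). The ISRE-like motif GAAANNGAA was found in B2m (8.56%), and GAANNGAAA, added after the sequences had been read, in H2-K1 and H2-D1 (7.52%). The 2 ISRE-like motifs can overlap in sequence. Psmb8 held the interferon-gamma activated site TTCNNNGAA (8.3%). CCAAT was found in 6 of the 8 genes, namely H2-K1, H2-D1, B2m, Tap1, Tapbp and Psmb9 (37.4%). The match of Tap1 and that of Psmb9 are the same box, marked above, so this count holds it for both genes. None of the 9 windows of these 8 genes held the AP-1 motif TGANTCA (7.81%), the Nur77 monomer motif AAAGGTCA (NBRE, 1.51%) or the cyclic AMP response element TGACGTCA (1.79%). A match describes letters only and is no evidence of binding.

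Total counts per library were 8742362 to 15780926 (median 11847140). Nr4a1 checked the genotype labels. At 0 h it was at 19.4, 15.5, 25.7 and 18.1 CPM (the count scaled to a common library size) in BMDM-WT and 4.92, 4.61, 4.44 and 7.00 CPM in BMDM-Nur77-KO, and the log2 fold change was -1.90 ± 0.19 (SE, adjusted p = 1.52e-08). Transcripts remained in the knockout, also at 1 h (146 to 243 CPM against 358 to 485 CPM). At 18 h Nr4a1 was under 0.5 CPM in both genotypes and did not check the labels (adjusted p = 0.68). Among the knockout libraries 2 stood apart, replicate 1 at 5 h and replicate 4 at 18 h. Their median absolute log2 deviations from their group were 0.50 and 0.347, against 0.0846 to 0.243 for the other 30, and the deviation fell with the GC content of the transcript (Spearman's rho -0.65 and -0.64). BMDM-WT replicate 3 at 18 h had a like rho (-0.65) with a deviation of 0.224, within the range of the others, and was the lowest library of its group for 9 of the 10 genes and the highest for B2m. Results at 5 and 18 h are therefore given with and without the 2 knockout libraries that stood apart. BMDM-WT replicate 3 at 18 h was kept in both. The transcripts of 9 of the 10 genes had a GC content of 52.9% to 57.3% and that of B2m 41.2%.

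All 8 macrophage markers were expressed, with a summed level of 11062 to 18871 CPM in a library. This sum was lower in BMDM-Nur77-KO, without overlap, at 5 h (13296 to 16136 against 16576 to 18019 CPM) and 18 h (11062 to 12682 against 14054 to 14705 CPM). Not all markers went this way. Mertk was higher in the knockout, without overlap, at 5 h (469 to 609 against 358 to 380 CPM) and 18 h (465 to 590 against 309 to 333 CPM), and Cd68 overlapped at both times. Lyz2, Itgam and Csf1r overlapped at 5 h as well, and Cd14 at 18 h. Sums of 6 dendritic cell markers reached 27.0 CPM. At 18 h they were 13.5 to 21.8 CPM in the knockout and 5.18 to 7.13 CPM in BMDM-WT, with Flt3, Siglech and Cd209a at 3 counts or fewer in all 8 of these libraries. Most of the knockout sum at 18 h was Clec9a (10.2 to 16.4 CPM, against 2.68 to 4.19 CPM in BMDM-WT). Xcr1 overlapped (2.41 to 5.24 against 2.00 to 2.96 CPM), and Zbtb46 did not pass 5 counts. Sums of 7 T and NK cell markers, Ifng among them, did not pass 2.87 CPM. They were lower in the knockout, without overlap, at 0 h (0.126 to 0.455 against 0.830 to 1.52 CPM, with no single marker over 10 counts), 1 h (0.301 to 0.450 against 1.20 to 1.62 CPM) and 5 h (0.335 to 1.18 against 1.42 to 2.44 CPM). B cell markers summed to 1.53 to 4.76 CPM, neutrophil markers to 9.43 to 33.5 CPM (at 1 h 24.5 to 30.1 CPM in the knockout and 17.5 to 21.5 CPM in BMDM-WT) and fibroblast markers to at most 1.88 CPM. The part of these differences in the results below was not tested, and in bulk samples fewer cells of a type and less RNA per cell cannot be told apart.

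Levels of different genes were compared per transcript length, as RPKM, which is CPM per kilobase of transcript. In untreated BMDM-WT the light chain B2m was the most abundant at 2051 ± 109 RPKM (SD, n = 4), followed by H2-D1 (803 ± 92.0 RPKM) and H2-K1 (393 ± 40.2 RPKM). Tapbp had 115 ± 8.77 RPKM, Psmb8 47.6 ± 4.89 RPKM, Psmb10 28.3 ± 2.81 RPKM and Tap1 20.0 ± 1.69 RPKM. At the low end, Psmb9 (14.1 ± 1.81 RPKM) and Tap2 (12.4 ± 0.331 RPKM) overlapped, and the transactivator Nlrc5 was lowest at 5.31 ± 0.634 RPKM. The chains of the class I molecule were thus above all genes of the loading machinery before LPS. Untreated BMDM-Nur77-KO had the same first 7 genes in the same order, and in both genotypes Nlrc5 was last.

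At 18 h of LPS in BMDM-WT, H2-K1 (1959 ± 172 RPKM) had reached H2-D1 (1962 ± 171 RPKM), and their libraries overlapped, whereas at 0 h H2-D1 was higher in every library. B2m stayed first at 6995 ± 688 RPKM, and Nlrc5 was last again at 39.9 ± 4.09 RPKM. At 5 h the order differed most from that at 0 h. Tap1 (270 ± 8.33 RPKM) had moved above Psmb8 (159 ± 3.71 RPKM) and Psmb10 (115 ± 3.17 RPKM), and Nlrc5 (73.4 ± 3.10 RPKM) lay above Tap2 (57.5 ± 0.332 RPKM) and overlapped Psmb9 (66.5 ± 4.59 RPKM). In BMDM-Nur77-KO at 5 and 18 h the neighbours in this order from Psmb8 down to Tap2 overlapped, at 18 h from Psmb8 (284 ± 45.7 RPKM) down to Tap2 (97.6 ± 17.6 RPKM).

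**Figure D1:**
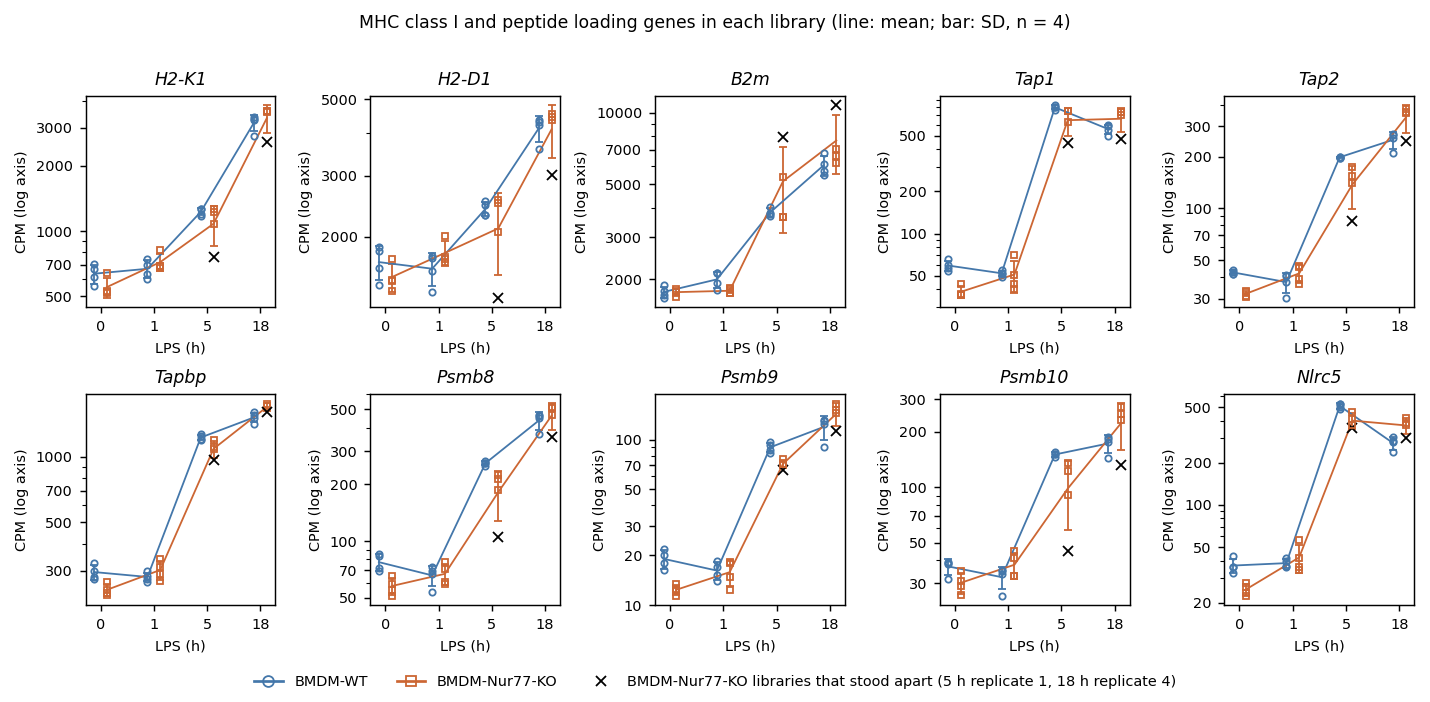
CPM (log axis) of each of the 10 genes in every library against hours of LPS, with BMDM-WT as circles, BMDM-Nur77-KO as squares, the 2 libraries that stood apart as crosses, lines through the group means and bars of 1 SD (n = 4). The group means of all 10 genes were higher at 5 h than at 1 h, in BMDM-WT Tap1 and Nlrc5 peaked at 5 h, and the others were at their highest mean at 18 h.

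The response of wild-type macrophages to LPS was followed first. At 1 h none of the 10 genes changed by edgeR's quasi-likelihood test (0 at an unadjusted p under 0.05 and 0 with DESeq2, against 10.2% of all genes higher and 10.2% lower). The same test with a correction for the GC content of transcripts called H2-K1 higher (0.29 on the log2 scale, adjusted p = 0.000177). In that fit 13.3% of all genes were higher. A fit to only the libraries compared called 1 gene higher, against 18.0% of all genes. By 5 h all 10 had risen (30.0% of all genes were higher), 8 of them by a log2 fold change over 1 (15.7% of all genes). Their median log2 fold change was 2.03, against -0.14 over all genes tested. By 18 h all 10 had risen by more than log2 1, with a median of 2.42 against -0.01 (32.3% of all genes were higher, and 13.1% past log2 1).

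The transporter subunit Tap1 and the transactivator Nlrc5 rose most at 5 h. Tap1 was at 56.4, 54.4, 65.8 and 59.9 CPM at 0 h and at 796, 802, 825 and 766 CPM at 5 h, a log2 fold change of 3.75 ± 0.16 (SE, adjusted p = 4.91e-19). Nlrc5 went from 42.9, 36.2, 35.8 and 32.4 CPM to 499, 485, 527 and 529 CPM, a log2 fold change of 3.79 ± 0.13 (adjusted p = 2.35e-21). Every library at 5 h was more than 10 times above every library at 0 h for both genes. Tap2, the partner of Tap1 in the transporter, rose less, from 41.6, 42.8, 44.1 and 41.9 CPM to 199, 199, 197 and 197 CPM (log2 fold change 2.22 ± 0.15, adjusted p = 3.29e-14). Tapbp, the tapasin bridge, went from 283, 276, 327 and 301 CPM to 1187, 1205, 1265 and 1237 CPM (2.04 ± 0.08, adjusted p = 1.01e-20). The groups of these 4 genes did not overlap between 0 and 5 h.

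The 3 immunoproteasome subunits rose by similar amounts at 5 h, with log2 fold changes of 1.74 ± 0.16 for Psmb8, 2.24 ± 0.13 for Psmb9 and 2.02 ± 0.22 for Psmb10 (adjusted p from 7.91e-16 to 1.34e-09). The class I molecule itself rose least. H2-D1 went from 1620, 1446, 1867 and 1817 CPM to 2313, 2469, 2540 and 2312 CPM, a log2 fold change of 0.51 ± 0.14 (adjusted p = 0.00195). H2-K1 rose by 0.95 ± 0.12 (adjusted p = 5.13e-08) and B2m by 1.11 ± 0.16 (adjusted p = 5.7e-07). Even for H2-D1 the lowest library at 5 h was above the highest at 0 h.

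Between 5 and 18 h the genes of BMDM-WT went in different directions, 7 higher and 2 lower (35.9% of all genes higher and 33.2% lower). The largest rise was that of H2-K1, from 1202, 1260, 1268 and 1175 CPM to 3264, 3294, 2759 and 3372 CPM (log2 fold change 1.37 ± 0.12, adjusted p = 3.9e-11). H2-D1 rose by 0.78 ± 0.14, Psmb8 by 0.75 ± 0.15 and B2m by 0.66 ± 0.16 on the log2 scale. Nlrc5 fell back to 287, 280, 238 and 305 CPM (log2 fold change -0.88 ± 0.12, adjusted p = 1.34e-07), and Tap1 to 549, 597, 499 and 583 CPM (-0.52 ± 0.15, adjusted p = 0.00236). Both were still well above all libraries at 0 h. Psmb10 was the gene that passed in neither direction (0.20 ± 0.21, adjusted p = 0.401). The call for Tap2 (0.34 ± 0.14, adjusted p = 0.0369) was lost in each of the 7 fits that left out 1 library other than BMDM-WT 18 h replicate 3 (adjusted p 0.0589 to 0.0902). With the GC content correction 4 genes were higher and 2 lower (34.7% and 38.7% of all genes in that fit), and Tap2 (0.08, adjusted p = 0.277), Tapbp (0.07, adjusted p = 0.429) and Psmb9 (0.19, adjusted p = 0.0644) did not pass.

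In BMDM-Nur77-KO, 3 genes had risen at 1 h, against 6.86% of all genes higher and 5.36% lower. Nlrc5 went from 22.4, 25.9, 23.6 and 27.5 CPM to 42.1, 34.4, 55.8 and 36.2 CPM (log2 fold change 0.76 ± 0.13, adjusted p = 3.33e-05). Tapbp rose by 0.30 ± 0.07 (adjusted p = 0.00387) and H2-K1 by 0.38 ± 0.12 (adjusted p = 0.0342). The groups of these 3 genes did not overlap. H2-K1 was lost without any 1 of 5 libraries (0 h replicates 1, 2 and 3, and 1 h replicates 1 and 4), which left 2 genes, and leaving out 1 h replicate 2 gave 5, with Tap1 and Psmb9 added. With the GC content correction 7 genes rose (9.73% of all genes in that fit).

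At 5 h all 10 genes had risen in BMDM-Nur77-KO (32.2% of all genes), 8 of them past log2 1 (16.0%), with a median log2 fold change of 1.90 against -0.12 over all genes. At 18 h all 10 had risen past log2 1 (33.7% of all genes were higher, and 15.4% past log2 1), with a median of 2.94 against -0.03. Tap1 was at 37.3, 36.5, 36.3 and 43.7 CPM at 0 h, 447, 621, 756 and 756 CPM at 5 h, and 701, 735, 737 and 470 CPM at 18 h. Its lowest value at 5 h and its lowest at 18 h came from the 2 libraries that stood apart. H2-D1 at 5 h was the one case of overlap with 0 h, through replicate 1 (1331 CPM, against 1388 to 1727 CPM at 0 h).

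Between 5 and 18 h of LPS, 8 of the 10 genes rose in BMDM-Nur77-KO and none fell (34.9% of all genes higher and 33.9% lower). The rises were largest for H2-K1 (log2 fold change 1.62 ± 0.12), Psmb8 (1.35 ± 0.15) and Tap2 (1.28 ± 0.14). Tap1 (0.03 ± 0.14, adjusted p = 0.847) and Nlrc5 (-0.11 ± 0.12, adjusted p = 0.4), the 2 genes that fell in BMDM-WT, did not pass. With the GC content correction both were lower at 18 than at 5 h in the knockout too, Tap1 by a log2 fold change of -0.31 (adjusted p = 0.0034) and Nlrc5 of -0.30 (adjusted p = 0.00642), which made 8 genes higher and 2 lower (34.1% and 38.0% of all genes in that fit).

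**Figure D2:**
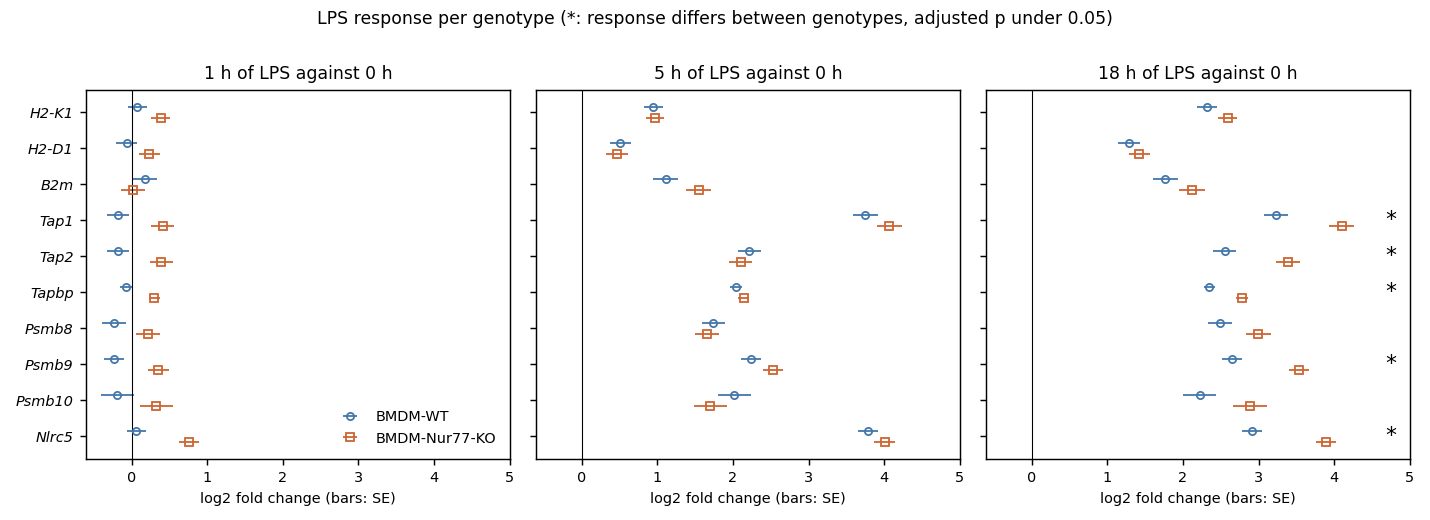
Log2 fold change of each gene against 0 h (bars of 1 SE) at 1, 5 and 18 h of LPS in BMDM-WT and BMDM-Nur77-KO, with an asterisk where the response differed between genotypes. At 5 h Tap1 and Nlrc5 lie near 4 in both genotypes, and at 18 h all points of BMDM-Nur77-KO lie to the right of those of BMDM-WT, with asterisks at Tap1, Tap2, Tapbp, Psmb9 and Nlrc5.

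The role of Nur77 was then examined by comparing the genotypes at each time. Before LPS, 4 of the 10 genes were lower in BMDM-Nur77-KO and none was higher, against 6.38% of all genes lower and 6.30% higher. These genes were the transporter subunit Tap1, the proteasome subunit Psmb9, the transactivator Nlrc5 and tapasin. Nlrc5 was at 42.9, 36.2, 35.8 and 32.4 CPM in BMDM-WT and at 22.4, 25.9, 23.6 and 27.5 CPM in BMDM-Nur77-KO, a difference of -0.57 ± 0.13 on the log2 scale (SE, adjusted p = 0.00264). Tap1, given above for both genotypes, differed by -0.62 ± 0.15 (adjusted p = 0.00576), that is by -34.9%. Psmb9 was at 18.0, 16.2, 21.8 and 20.2 CPM against 12.2, 11.4, 12.6 and 13.4 CPM (-0.62 ± 0.14, adjusted p = 0.00226). Tap1 and Psmb9 were the 2 genes past a log2 fold change of 0.58 (2.44% of all genes were lower by as much). In all 4 cases each library of BMDM-Nur77-KO was below each of BMDM-WT. This describes the libraries behind these calls and is no separate evidence, as the share of all genes without overlap was not determined.

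Tapbp showed the smallest of these differences (-0.27 ± 0.07, adjusted p = 0.0136). It did not pass without BMDM-Nur77-KO replicate 2 (adjusted p = 0.0517), without BMDM-WT replicate 3 (0.0751) or with the GC content correction (-0.09, adjusted p = 0.51), whereas the other 3 passed in all 8 fits without 1 library of either group. Tap2 (-0.41 ± 0.15, adjusted p = 0.0667) and Psmb8 (-0.42 ± 0.15, adjusted p = 0.0739) missed the threshold although their groups did not overlap. The GC content correction brought both under it (-0.23, adjusted p = 0.0332, and -0.27, adjusted p = 0.0271). The class I molecule itself did not pass: H2-K1 gave -0.21 ± 0.12, H2-D1 -0.15 ± 0.14 and B2m 0.00 on the log2 scale, each with overlapping groups. The median over the 10 genes was -0.35, against -0.03 over all genes.

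At 1 h of LPS no gene differed between the genotypes (0 at an unadjusted p under 0.05, 0 with DESeq2, against 3.47% of all genes higher and 3.04% lower), with log2 fold changes of -0.16 to 0.22. Nlrc5, for example, was at 41.5, 36.5, 39.7 and 35.8 CPM in BMDM-WT and 42.1, 34.4, 55.8 and 36.2 CPM in BMDM-Nur77-KO. The groups of all 10 genes overlapped.

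At 5 h, 5 genes were lower in BMDM-Nur77-KO and none higher (10.7% of all genes lower and 13.5% higher). They were the 3 immunoproteasome subunits, Tap2 and Nlrc5. Tap2 was at 199, 199, 197 and 197 CPM in BMDM-WT and at 84.2, 140, 153 and 174 CPM in BMDM-Nur77-KO (-0.52 ± 0.14, adjusted p = 0.00975). Psmb8 was at 259, 267, 258 and 252 CPM against 105, 186, 213 and 224 CPM (-0.51 ± 0.15, adjusted p = 0.0169). Psmb10 was at 151, 156, 151 and 145 CPM against 45.2, 90.6, 123 and 135 CPM (-0.62 ± 0.21, adjusted p = 0.0332), the one gene past log2 0.58 (3.13% of all genes). For these genes the groups did not overlap, and replicate 1 of BMDM-Nur77-KO, which stood apart, was the lowest library. Nlrc5 differed by -0.35 ± 0.12 (adjusted p = 0.0324) and Psmb9 by -0.33 ± 0.12 (adjusted p = 0.0476).

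The 5 h calls changed with the libraries in the fit. Without both libraries that stood apart, Tap2 (-0.35, adjusted p = 0.00617), Psmb8 (-0.32, adjusted p = 0.0263) and Psmb10 (-0.38, adjusted p = 0.0308) passed, and Nlrc5 and Psmb9 did not (8.42% of all genes were lower in that fit). Leaving out 1 library at a time gave 1 gene without BMDM-Nur77-KO replicate 1, 2 without BMDM-Nur77-KO replicate 2, BMDM-WT replicate 1 or BMDM-WT replicate 3, 3 without BMDM-WT replicate 2, and 8 without BMDM-Nur77-KO replicate 4 (7 lower, and B2m higher). Tap2 passed in each of these fits. A fit to the 8 libraries at 5 h alone called none, with a median log2 fold change of -0.32 as before and 1.48% of all genes lower. The median was -0.23 without both libraries that stood apart and -0.13 with the GC content correction. With that correction Tap2 (-0.34, adjusted p = 0.000525), Psmb8 (-0.35, adjusted p = 0.0017) and Psmb10 (-0.47, adjusted p = 0.00745) were lower, against 13.2% of all genes. Psmb9 (-0.14, adjusted p = 0.285) and Nlrc5 (-0.24, adjusted p = 0.0646) did not pass in it. B2m moved the other way, with 7934, 5387, 3665 and 3644 CPM in BMDM-Nur77-KO against 3763, 3671, 3801 and 4027 CPM in BMDM-WT (0.43 ± 0.16, adjusted p = 0.0504). It passed as higher with DESeq2 and with DESeq2's size factors in edgeR, which both gave 1 gene higher and 4 lower. Its groups overlapped, and without the libraries that stood apart the value was 0.15 (adjusted p = 0.298).

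At 18 h, 2 genes were higher in BMDM-Nur77-KO and none lower, a count near the share of all genes (11.7% higher and 9.79% lower). Nlrc5 was at 287, 280, 238 and 305 CPM in BMDM-WT and 376, 419, 383 and 303 CPM in BMDM-Nur77-KO (0.42 ± 0.12, adjusted p = 0.0101). Tap2 was at 256, 265, 208 and 269 CPM against 357, 362, 378 and 246 CPM (0.43 ± 0.14, adjusted p = 0.028). In both genes replicates 1 to 3 of BMDM-Nur77-KO were above all of BMDM-WT and replicate 4, which stood apart, was not. Without both libraries that stood apart 5 genes were higher, with Tap1 (0.38, adjusted p = 0.00862), Psmb9 (0.37, adjusted p = 0.0109) and Psmb10 (0.55, adjusted p = 0.000694) added to Tap2 (0.55, adjusted p = 9.59e-06) and Nlrc5 (0.50, adjusted p = 0.000704). The share of all genes higher in that fit was 12.9%. It kept BMDM-WT replicate 3, the lowest BMDM-WT library for these 5 genes, so a low library was left out of the knockout only. The GC content correction gave 7, with Tapbp (0.28, adjusted p = 0.00631) and the heavy chain H2-K1 (0.18, adjusted p = 0.0125) among them, and 17.2% of all genes. Leaving out BMDM-Nur77-KO replicate 4 alone gave 4, and leaving out any of BMDM-Nur77-KO replicates 1 to 3 or BMDM-WT replicates 1 and 3 left Nlrc5 alone. Without the correction H2-K1 gave 0.07 ± 0.12 (adjusted p = 0.737), H2-D1 -0.01 ± 0.14 (adjusted p = 0.974) and B2m 0.35 ± 0.16 (adjusted p = 0.134). The macrophage and dendritic cell marker sums given above differed between the genotypes at this time, and their part was not tested.

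**Figure D3:**
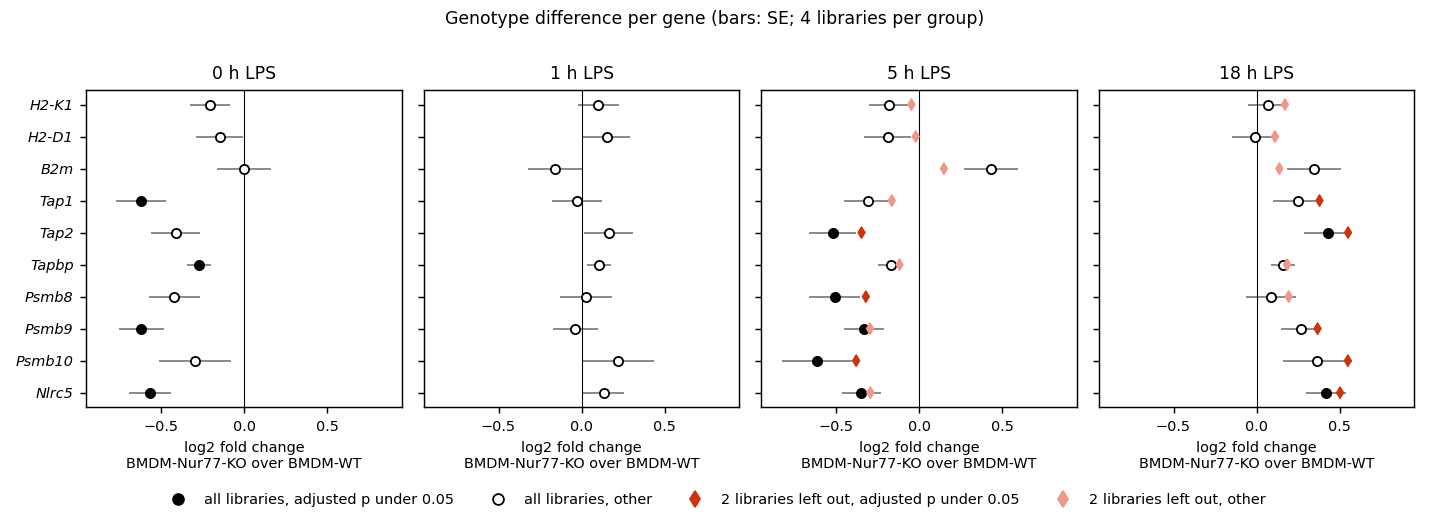
Log2 fold change of BMDM-Nur77-KO over BMDM-WT for each gene (bars of 1 SE, 4 libraries per group) at 0, 1, 5 and 18 h, with circles for all libraries (filled where the adjusted p was under 0.05) and diamonds for the fit without the 2 libraries that stood apart. Filled circles lie left of 0 for 4 genes at 0 h and 5 at 5 h, none are filled at 1 h, and Tap2 and Nlrc5 lie right of 0 at 18 h.

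Whether LPS moved the genes by different amounts in the 2 genotypes was tested as an interaction relative to 0 h. These tests share the 0 h libraries of both genotypes with each other and with the comparisons above. At 1 h no gene passed (5 at an unadjusted p under 0.05, 2 with DESeq2, against 0.0443% of all genes with a larger change in BMDM-Nur77-KO). At 5 h none passed either (0 at an unadjusted p under 0.05, 0 with DESeq2, against 1.72%). At 18 h the rise was larger in BMDM-Nur77-KO for 5 genes and smaller for none, against 5.36% of all genes with a larger change.

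The largest difference at 18 h was that of Nlrc5, whose log2 fold change was 3.89 ± 0.14 in BMDM-Nur77-KO and 2.91 ± 0.13 in BMDM-WT, a difference of 0.98 ± 0.17 (SE, adjusted p = 0.000197). Psmb9 followed (3.53 ± 0.14 against 2.65 ± 0.13, difference 0.88 ± 0.18, adjusted p = 0.00111). Both transporter subunits passed, Tap1 with a difference of 0.87 ± 0.21 (adjusted p = 0.00567) and Tap2 with 0.84 ± 0.20 (adjusted p = 0.00617). Tapbp had the smallest (0.43 ± 0.10, adjusted p = 0.00579). In the group means of these 5 genes BMDM-Nur77-KO was below BMDM-WT at 0 h and above it at 18 h. Between the genotypes at 18 h alone, Tap1 (0.25), Psmb9 (0.27) and Tapbp (0.16) did not pass in the fit with all libraries. The heavy chains and B2m did not pass (H2-K1 0.27 ± 0.17, H2-D1 0.14 ± 0.20, B2m 0.35 ± 0.23). Without both libraries that stood apart 8 genes passed, with H2-K1 (0.38, adjusted p = 0.0307), Psmb8 (0.61, adjusted p = 0.00193) and Psmb10 (0.85, adjusted p = 0.000585) added. In that fit, which kept BMDM-WT replicate 3 at 18 h, 10.1% of all genes had a larger change. With the GC content correction 8 passed as well (8.53% of all genes), with B2m (0.41, adjusted p = 0.0145), Psmb8 (0.46, adjusted p = 0.00478) and Psmb10 (0.59, adjusted p = 0.0293) added.

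Each inducible subunit takes the place of a constitutive one in the proteasome: Psmb8 of Psmb5, Psmb9 of Psmb6 and Psmb10 of Psmb7. The ratio of their RPKM values was followed in each library. In BMDM-WT the ratio of Psmb8 to Psmb5 was 1.06 ± 0.0536 (SD, n = 4) at 0 h and 3.29 ± 0.166 at 18 h, that of Psmb9 to Psmb6 went from 0.105 ± 0.0104 to 0.373 ± 0.0379, and that of Psmb10 to Psmb7 from 0.454 ± 0.0590 to 1.49 ± 0.134. At 1 h the Psmb9 to Psmb6 ratio of BMDM-WT was 0.0749 to 0.0909, below all its libraries at 0 h, and the other ratios overlapped those at 0 h. The constitutive subunits rose less with LPS than their inducible partners, by 0.87 for Psmb5, 0.82 for Psmb6 and 0.50 for Psmb7 on the log2 scale at 18 h.

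The genotypes were compared on these ratios in 12 exact two-sided permutation tests of the log2 ratio (3 pairs at 4 times), with a smallest possible p of 0.0286. None passed after adjustment over the 12. With this smallest p, a ratio without overlap could pass only if most of the other tests reached it too. The tests could therefore not decide on single ratios. At 0 h the ratio of Psmb9 to Psmb6 was 0.0715 ± 0.00544 in BMDM-Nur77-KO and 0.105 ± 0.0104 in BMDM-WT, with no overlap (exact permutation p = 0.0286, adjusted p = 0.171). At 18 h the ratio of Psmb8 to Psmb5 was 4.36 ± 1.07 against 3.29 ± 0.166, again with no overlap (exact permutation p = 0.0286, adjusted p = 0.171). The highest values of that ratio in the knockout (5.68 at 5 h, 5.94 at 18 h) came from the 2 libraries that stood apart, where Psmb5 was at 10.3 and 33.1 CPM against 22.4 to 43.0 and 68.4 to 76.3 CPM in the other libraries of their groups.

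**Figure D4:**
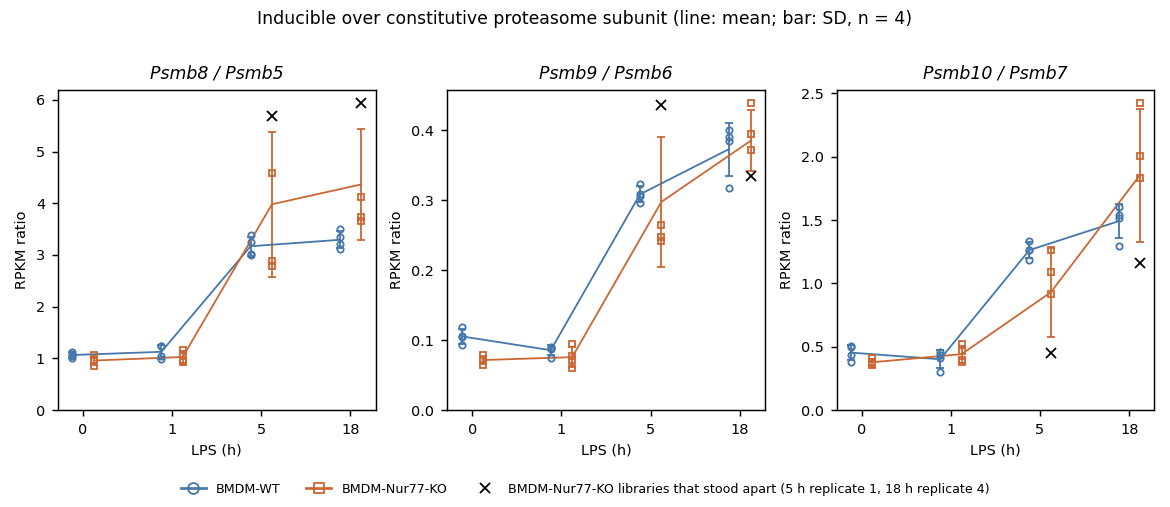
RPKM ratio of Psmb8 to Psmb5, Psmb9 to Psmb6 and Psmb10 to Psmb7 in every library against hours of LPS, with circles for BMDM-WT, squares for BMDM-Nur77-KO, crosses for the 2 libraries that stood apart, lines through the means and bars of 1 SD (n = 4). All 3 ratios in BMDM-WT were higher at 5 and 18 h than at 0 h, and the crosses lie at the top of the Psmb8 to Psmb5 ratio.

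A list of 35 other genes of class I presentation was followed in the same fit, all of which were tested. In BMDM-WT 23 had risen and 6 had fallen at 5 h of LPS (30.0% and 40.0% of all genes), and 23 had risen and 2 had fallen at 18 h (32.3% and 33.9%). In BMDM-Nur77-KO the numbers were 24 and 7 at 5 h (32.2% and 39.1% of all genes) and 24 and 3 at 18 h (33.7% and 35.5%). Set against BMDM-WT, none was higher and 4 were lower in the knockout at 0 h (6.30% and 6.38% of all genes), none changed at 1 h (3.47% and 3.04%), 4 were higher and 3 lower at 5 h (13.5% and 10.7%), and 7 were higher and 3 lower at 18 h (11.7% and 9.79%). The median genotype difference of the list at 18 h was 0.09, against 0.26 for the 10 genes and -0.01 for all genes.

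Among the 8 genes of peptide loading and trimming, the largest rises at 18 h in BMDM-WT were those of Tapbpl (2.46 ± 0.14 on the log2 scale), a relative of tapasin, Erap1 (1.01 ± 0.12), the aminopeptidase that trims peptides in the endoplasmic reticulum, and Lnpep (0.85 ± 0.22), an endosomal aminopeptidase. At 18 h the knockout had more of the cytosolic leucine aminopeptidase Lap3, with 99.8, 97.7, 97.6 and 85.3 CPM against 47.2, 46.8, 51.1 and 46.8 CPM (0.99 ± 0.08, adjusted p = 2.69e-11). No library overlapped. Tapbpl was higher too (0.56 ± 0.13, adjusted p = 0.00165), and the chaperone calreticulin, Calr, was lower (-0.26 ± 0.08, adjusted p = 0.0243).

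Among the 6 other proteasome genes, both subunits of the PA28 activator rose strongly in BMDM-WT at 18 h, Psme2 by 2.53 ± 0.15 and Psme1 by 2.06 ± 0.10 on the log2 scale, and Psmb5 followed with 0.87 ± 0.24. In the knockout Psme1 was lower at 0 h (-0.30 ± 0.10, adjusted p = 0.0351) and higher at 18 h (0.27 ± 0.09, adjusted p = 0.0428). The constitutive subunits did not pass at 18 h, with -0.24 for Psmb5, 0.22 for Psmb6 and 0.05 for Psmb7.

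Of 12 class Ib and class I-like genes, which encode heavy chains other than the classical ones, 10 rose and 2 fell in BMDM-WT at 18 h. The rises were largest for H2-Q6 (6.33 ± 0.20), H2-T24 (4.57 ± 0.17) and H2-Q7 (4.55 ± 0.29). The genes that fell were Fcgrt, the neonatal Fc receptor (-1.56 ± 0.18), and Hfe, a regulator of iron uptake (-1.16 ± 0.12). These heavy chains pair with B2m but do not present peptides. The knockout had less of both at 0 and at 18 h (at 18 h Hfe -0.86 ± 0.12, adjusted p = 3.53e-06, and Fcgrt -0.67 ± 0.18, adjusted p = 0.00807), while H2-Q6 was higher at 18 h (0.57 ± 0.15, adjusted p = 0.00534). Counts of the H2-Q and H2-T genes are uncertain, as their sequences are close to each other and to H2-K1 and H2-D1.

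Among 9 regulators, Irf1 (2.15 ± 0.10) and Irf2 (0.90 ± 0.16), transcription factors of the interferon response, and Rfx5 (0.80 ± 0.11), a subunit of the complex that binds MHC promoters, rose most in BMDM-WT at 18 h. Irf1, like Nlrc5, was lower in the knockout before LPS and higher at 18 h. At 0 h it was at 106, 77.4, 97.2 and 103 CPM in BMDM-WT and at 57.2, 52.0, 52.8 and 57.6 CPM in BMDM-Nur77-KO (-0.81 ± 0.09, adjusted p = 3.56e-07). At 18 h it was at 403, 456, 401 and 444 CPM against 703, 753, 701 and 663 CPM (0.73 ± 0.09, adjusted p = 3.79e-07). The groups did not overlap at either time, and all 4 libraries of BMDM-Nur77-KO, the one that stood apart included, were the higher ones at 18 h. Ciita, the class II transactivator and a relative of Nlrc5, was higher in the knockout, at 10.7, 15.2, 17.7 and 10.1 CPM against 4.39, 4.48, 3.92 and 5.01 CPM at 18 h (1.60 ± 0.23, adjusted p = 3.11e-06). The rise by 18 h was larger in BMDM-Nur77-KO for 6 of the 35 genes and smaller for none (5.36% and 4.03% of all genes), namely Irf1 (1.53), Ciita (1.99), Psme1 (0.57), Lap3 (0.97), Tapbpl (0.96) and H2-Q4 (0.52).

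**Figure D5:**
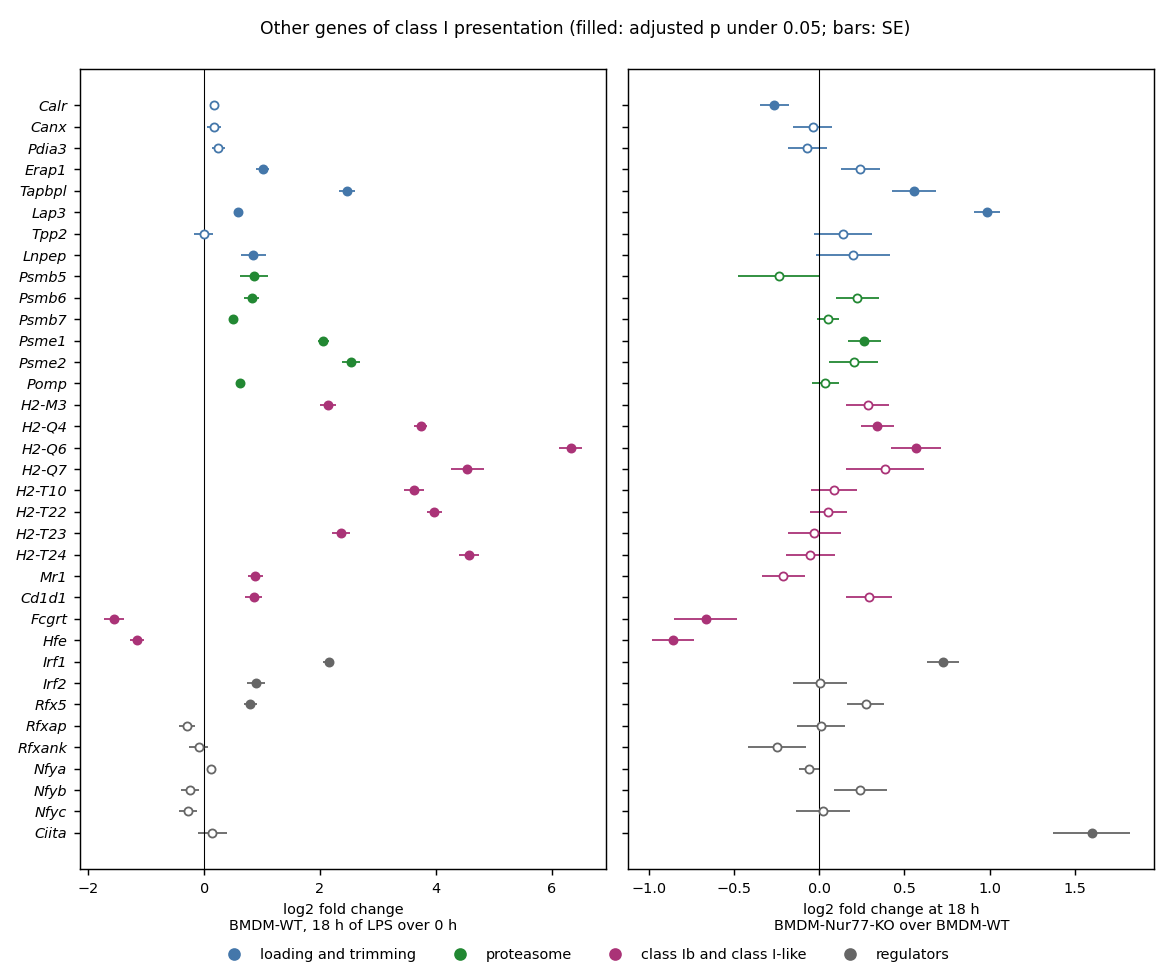
Log2 fold changes (bars of 1 SE) of the 35 other class I presentation genes, coloured by their list, for 18 h of LPS over 0 h in BMDM-WT (left) and for BMDM-Nur77-KO over BMDM-WT at 18 h (right), filled where the adjusted p was under 0.05. On the left H2-Q6 lies farthest from 0 (6.33), and on the right Ciita (1.60) and Lap3 (0.99) lie farthest above 0 and Hfe (-0.86) farthest below.

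The 10 genes were correlated over the 32 libraries, which share the time course. Between 5 and 18 h in BMDM-WT they went in different directions, as given above. Pearson's r of a gene's log2 CPM with the mean of the other 9 was lowest for H2-D1 (0.884) and highest for Tap2 (0.995). The 5 other genes whose pattern was most like the mean of the 10 were Psme2 (0.995), Plaat3 (0.995), Lgals9 (0.994), Irf7 (0.994) and Itgal (0.994). Irf7, a factor of the interferon response, went in group means from 21.1 CPM at 0 h to 731 CPM at 5 h and 1729 CPM at 18 h in BMDM-WT, and from 11.2 to 505 and 2092 CPM in BMDM-Nur77-KO. Psme2 went from 74.2 to 332 and 429 CPM in BMDM-WT and from 57.8 to 235 and 493 CPM in BMDM-Nur77-KO. In the means of both genes BMDM-Nur77-KO was lower at 0 and 5 h and higher at 18 h.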

How the data were processed

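RNA-seq of 32 BMDM libraries was analysed. The authors aligned reads to mm10 with HISAT2 2.1.0, removed alignments of low mapping quality (SAMtools) and used HOMER to count tags per RefSeq transcript. They deposited expected counts without normalization, in multiples of 0.5 (28.6% are not whole), and used DESeq2. The libraries were strand-specific, and whether counting used the strand is not given in the sources used here.

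Of 42361 transcripts, 93 had no symbol (0.233% to 1.37% of tags) and were left out. Each gene was represented by its transcript of highest mean count, and counts were rounded. For Tap1, H2-K1 and Tapbp, which have 2 listed transcripts each, this leaves out the other. In R 4.3.3, edgeR 4.0.16 was run with TMM scaling (factors 0.712 to 1.27) and the quasi-likelihood test in 1 model with a mean for each of 8 groups. Genes entered the test if their mean RPKM passed 1 in any group (11283 genes, RPKM without TMM scaling), with Benjamini-Hochberg adjustment over all of them, and a call is an adjusted p under 0.05. SE is that of the fitted log2 fold change. CPM and RPKM in the text use TMM-scaled library sizes. All 10 genes were named, as were, from 4 lists of 35 pathway genes, the 3 per list with the largest rise in BMDM-WT and the 3 with the largest genotype difference at 18 h, with Psmb5, Psmb6 and Psmb7. Further genes of these lists were named after their values were seen, and 1 listed gene is not reported here. The genes and lists were chosen with earlier results of these data known. Markers of macrophages, B cells, T and NK cells, dendritic cells, neutrophils and fibroblasts were summed. The scripts were tested on simulated data. Alternatives were DESeq2 1.42.0, its size factors, another filter (filterByExpr), summed transcripts, only the libraries compared, a replicate block and leaving out each library. Leaving out both libraries that stood apart and a GC content correction were chosen after seeing the data.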

Additional observations from a re-analysis of the deposited data

Results flagged for a closer look

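In 104 groups of 4 values (the genes and the proteasome ratios in each genotype and time), 9 had 1 library far from the other 3, where chance gives about 1 in 20. BMDM-Nur77-KO replicate 4 at 18 h, 1 of the 2 libraries that stood apart, gave 4 of these, all below the rest of its group, with H2-D1 at 3028 CPM, H2-K1 at 2593 CPM, Tap1 at 470 CPM and Tap2 at 246.1 CPM. BMDM-Nur77-KO replicate 1 at 5 h, the other one, had a Psmb9 to Psmb6 ratio of 0.437. BMDM-Nur77-KO replicate 4 at 0 h was high for H2-K1 (639 CPM) and Tap1 (43.7 CPM), BMDM-Nur77-KO replicate 1 at 1 h was high for H2-K1 (819 CPM), and BMDM-WT replicate 1 at 0 h was low for Psmb10 (31.6 CPM).

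The response at 18 h of LPS relative to 0 h differed between the genotypes, by the interaction test, for Tap1 (0.87 on the log2 scale), Tap2 (0.84), Tapbp (0.43), Psmb9 (0.88) and Nlrc5 (0.98), larger in BMDM-Nur77-KO in each case. The 0 h libraries, in which 4 of these 5 genes were lower in BMDM-Nur77-KO, enter each of these tests.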

How the results depend on the processing

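The calls of all 10 genes at 5 and 18 h of LPS against 0 h, in both genotypes, held under every alternative and without any 1 library. Over the values of single genes, the alternatives other than leaving out 1 library kept direction and call in 1048 cases, added a call in 36, lost one in 22 and turned the direction in 26. Same-numbered libraries of the 2 genotypes at a time did not stand out as pairs (r -0.368 to 0.254, with 4 of 16 knockout libraries closest to their own number). Whether a number links the libraries of a genotype across times was not tested. With the replicate block, 4 genes instead of 5 differed at 5 h and 2 instead of 3 rose at 1 h in BMDM-Nur77-KO, and all other counts were as before. Depth limits little here, as no gene had fewer than 134 counts in a library. The spread within the knockout groups at 5 and 18 h limits more.

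Leaving out 1 library at a time, the count of genes was 1 to 8 for the genotypes at 5 h, 1 to 4 at 18 h, and 2 to 5 for LPS at 1 h in BMDM-Nur77-KO. With only the libraries compared, the count was 0 for the genotypes at 5 h, 1 at 18 h, 1 for LPS at 1 h in BMDM-WT and 5 in BMDM-Nur77-KO, and 2 for the interaction at 1 h. DESeq2 also gave 2 for this interaction. Without both libraries that stood apart it was 3 at 5 h, 5 at 18 h and 8 for the interaction at 18 h. With the GC content correction it was 3 at 5 h, 7 at 18 h, 1 for LPS at 1 h in BMDM-WT, 7 in BMDM-Nur77-KO and 8 for the interaction at 18 h, and for 18 against 5 h it was 6 (4 higher, 2 lower) instead of 9 in BMDM-WT and 10 (8 higher, 2 lower) instead of 8 in BMDM-Nur77-KO. The cause of these changes was not tested.

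The direction turned in the values that follow (log2 scale), of which the GC content correction made 1 a call, Tap1 at 18 against 5 h in BMDM-Nur77-KO. For B2m between the genotypes at 0 h it was 0.0229 with DESeq2 and with its size factors, 0.0234 with only the libraries compared, 0.00106 with summed transcripts, and -0.0275 to 0.0312 without 1 library. H2-D1 between the genotypes at 18 h was 0.00446 with DESeq2 and with its size factors, 0.11 without both libraries that stood apart, 0.0977 with the GC content correction and -0.0703 to 0.11 without 1 library. Tap1 at 18 against 5 h in BMDM-Nur77-KO was -0.0156 with DESeq2 and with its size factors, -0.315 with the GC content correction and -0.11 to 0.17 without 1 library. In the interaction at 5 h without both libraries that stood apart, H2-D1 was 0.125, Tap2 0.065 and Psmb8 0.0985, and without 1 library H2-D1 was -0.15 to 0.12, H2-K1 -0.061 to 0.16, Psmb8 -0.20 to 0.10 and Tap2 -0.24 to 0.07. With the GC content correction, H2-D1 at 0 h was 0.0129, Psmb8 at 1 h -0.0335, H2-K1 at 5 h 0.00412 and Tapbp at 5 h 0.0507 between the genotypes. In BMDM-WT at 1 h of LPS the correction gave 0.135 for H2-D1, -0.00152 for B2m, 0.0463 for Tap1, 0.0351 for Tap2, 0.143 for Tapbp and 0.0184 for Psmb10, and without 1 library H2-D1 was -0.13 to 0.00479. It also gave -0.0388 for Psmb10 at 18 against 5 h in BMDM-WT and 0.143 for B2m in the interaction at 1 h. Without 1 library, B2m at 1 h of LPS in BMDM-Nur77-KO was -0.00284 to 0.0354. Between the genotypes at 1 h, Nlrc5 was -0.0323 to 0.22, Psmb8 -0.0561 to 0.0809, Psmb9 -0.11 to 0.065 and Tap1 -0.22 to 0.0699.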
